A study of Homo sapiens with 12 samples.

Results

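The genes described here are LGR5 and 9 other genes of Wnt signalling and its feedback: the R-spondin receptor LGR4, the ubiquitin ligases RNF43 and ZNRF3, the inhibitors AXIN2 and DKK1, the ligand WNT5A, and LEF1, TCF7L2 and CTNNB1, which act in the nucleus. They are 10 of the 19907 genes with a value in each library. All 10 were picked by symbol, were found in all 12 libraries and passed the filter on low values, which asked for 10 or more in 3 or more libraries. LGR5 was picked because it fell with dexamethasone (Dex) in cells with the wild-type receptor, so its response there, and every comparison that uses those cells, is given as a description without a test.

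Wnt ligands bind Frizzled and LRP receptors at the cell surface, which spares beta-catenin, the product of CTNNB1, from breakdown and lets it act with TCF and LEF proteins on target genes. The ligases RNF43 and ZNRF3 remove Frizzled receptors from the membrane. R-spondins, bound to LGR4, LGR5 or LGR6, take these ligases away and so strengthen the signal. AXIN2, RNF43, ZNRF3 and LGR5 are themselves known targets of beta-catenin in many tissues, which closes feedback loops, and DKK1 is a secreted protein that blocks LRP receptors.

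The RNA came from MDA-MB-231, a cell line of human triple-negative breast cancer, in 4 groups of 3 libraries: S134A-GR with Dex, S134A-GR with vehicle, WT-GR with Dex and WT-GR with vehicle. S134A-GR cells express a glucocorticoid receptor in which alanine replaces a serine that can be phosphorylated, and WT-GR cells express the wild-type receptor. All groups were kept for 18 h in serum-starved medium with 1% DCC and then given 1 µM Dex, a synthetic agonist of the receptor, or vehicle for 6 h. The labels do not say whether either line is a clone or a pool, whether an endogenous receptor remains, or whether each library stands for its own culture. The p-values therefore measure only how far these samples spread, which may be technical.

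Levels are given as normalized read counts, which are the authors' gene counts after division by 1 size factor per library. The recovered depth ran from 56.4 to 100.6 M reads per library, lowest in WT-GR vehicle replicate 1 and WT-GR Dex replicate 1. WT-GR Dex replicates 2 and 3 stood apart from the rest, with only 193 and 210 genes at a single read, where the other libraries had 352 to 409. Gene names of the Dex libraries were restored by line order, and every Dex value rests on that. The mesenchymal marker VIM ran from 366469 to 431198, AXL from 97699 to 124504, SPARC from 53143 to 63358 and CD44 from 28862 to 44619. FN1, of the same list, ran far more widely, from 9197 to 87082. The luminal markers ESR1 and CDH1 ran from 0 to 5.66 and from 0 to 17.1. Other luminal markers were expressed, ERBB2 at 8864 to 12005, GATA3 at 786 to 1574, EPCAM at 315 to 1093 and FOXA1 at 137 to 303, and EPCAM averaged 378 in S134A-GR vehicle against 1024 in WT-GR vehicle. The blood markers PTPRC and CD14 ran from 0 to 18.3 and from 2.03 to 54.9. With Dex, limma called 1 of 5 mesenchymal markers higher and 3 lower in each genotype, and of 5 luminal markers 1 higher in S134A-GR and 2 higher in WT-GR cells. The share of all genes called with Dex was 15.7% in S134A-GR and 27.9% in WT-GR cells. Between genotypes in vehicle limma called 1 of 5 mesenchymal markers lower, 2 of 5 luminal markers higher and 1 lower in S134A-GR cells. CD14, the blood marker past the filter, was called lower there. Of all genes, 50.5% were called in that comparison. The part of these markers in the results was not tested. Genes known to be induced by glucocorticoids passed limma's threshold: on the log2 scale TSC22D3 rose by 4.30 and 4.37, FKBP5 by 3.33 and 3.72 and PER1 by 2.52 and 2.95 in S134A-GR and WT-GR cells. NR3C1, the receptor gene, was lower in S134A-GR cells, with log2 differences from WT-GR cells of -0.27 in Dex and -0.41 in vehicle, and a gene count cannot show the point mutation.

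Promoter sequences are shown for DKK1 and WNT5A, the members that rose with Dex in both genotypes. Each is the 250 bases before a gene start, 5′ to 3′ on the gene's strand, from RefSeq on GRCh38.p14. DKK1 has 1 such window, chr10:52314031-52314280 on the plus strand. WNT5A has a distal window, chr3:55487307-55487556, and a proximal window, chr3:55481399-55481648, both on the minus strand. Capitals mark matches to the TCF/LEF core.
DKK1: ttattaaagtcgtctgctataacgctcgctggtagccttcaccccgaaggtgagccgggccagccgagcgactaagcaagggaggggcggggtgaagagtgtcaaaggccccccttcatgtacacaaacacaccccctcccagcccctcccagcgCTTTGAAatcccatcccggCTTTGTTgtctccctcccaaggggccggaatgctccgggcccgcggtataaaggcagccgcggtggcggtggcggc
WNT5A distal: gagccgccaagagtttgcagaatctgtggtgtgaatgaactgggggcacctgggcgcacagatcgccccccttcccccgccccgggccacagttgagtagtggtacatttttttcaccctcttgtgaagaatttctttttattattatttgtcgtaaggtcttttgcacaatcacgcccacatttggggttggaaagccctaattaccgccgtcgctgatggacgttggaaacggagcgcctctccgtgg
WNT5A proximal: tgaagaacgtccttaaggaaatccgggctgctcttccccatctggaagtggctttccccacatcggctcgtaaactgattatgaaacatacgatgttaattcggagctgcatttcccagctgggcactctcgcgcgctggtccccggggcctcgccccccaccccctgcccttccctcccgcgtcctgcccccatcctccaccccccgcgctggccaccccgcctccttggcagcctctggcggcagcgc

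The TCF/LEF core was searched on both strands as CTTTG followed by A or T at each of the next 2 bases, and 12% of 35116 promoter windows of this length held a match. The DKK1 window held 2 matches, at bases 95 to 89 and 76 to 70 before the start, and neither WNT5A window held any. The glucocorticoid response element, searched on both strands as GNACA, 3 bases of any kind and TGTNC, was found in 0.327% of all windows and in none of the 11 windows of the 7 members with an entry. The hexamer AGAACA, which resembles either side of that element, was searched on both strands and found in 12.4% of all windows, and was present in 1 of 2 RNF43 windows, in the LEF1 window and in 1 of 3 TCF7L2 windows. In that TCF7L2 window the hexamer overlapped a match to the TCF/LEF core, the only such match outside DKK1. LGR5, ZNRF3 and AXIN2 had no entry. A match is a run of letters, not a shown binding site.

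LGR5, the stem cell marker and high-affinity R-spondin receptor, fell with Dex in S134A-GR cells to 0.181 times its vehicle level (gene ENSG00000139292, chr12:71439770-71586310, plus strand, GRCh38). Its values were 25.4, 11.4 and 19.8 in S134A-GR Dex, against 88.6, 110.5 and 113 in S134A-GR vehicle. All 3 Dex libraries lay far below all 3 vehicle libraries, and such groups did not overlap for 38.6% of all genes. The means were 18.8 ± 7.04 in Dex and 104 ± 13.5 in vehicle (SD, n = 3 each), and the log2 difference was -2.46 ± 0.45 (SE), with limma adjusted p = 0.0014. The direction and the call held under each of the 21 alternatives run, with differences from -2.70 to -2.16. In bulk RNA, fewer cells that express the gene and less RNA per cell cannot be told apart.

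In WT-GR cells, where the fall of LGR5 was the reason for its choice, its values were 39.3, 41.9 and 10.2 in Dex, against 261, 191 and 163 in vehicle. The Dex libraries again lay below the vehicle libraries without overlap, as was so for 35.1% of all genes, and Dex replicate 3 was about as low as the lowest S134A-GR Dex library. The means were 30.5 ± 17.6 in Dex and 205 ± 50.2 in vehicle (SD, n = 3 each), a log2 difference of -2.91 ± 0.45 (SE). S134A-GR minus WT-GR, the difference of responses was 0.45 ± 0.63 (SE). It turned to -0.18 without WT-GR Dex replicate 3, so no order of the responses can be read from these libraries.

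LGR5 also had a lower level in S134A-GR vehicle than in WT-GR vehicle, at a log2 difference of -0.95 ± 0.45 (SE). Those groups did not overlap, as was so for 64.3% of all genes. In Dex the groups overlapped, where 52.4% of all genes did not, and the difference was -0.50 ± 0.45 (SE). Single libraries moved this value widely: leaving out WT-GR Dex replicate 3 gave -1.14, leaving out replicate 2 or 1 of that group gave -0.16 or -0.21, and leaving out S134A-GR Dex replicate 2 gave -0.20. The reads behind these values were few: S134A-GR libraries held 13 to 24 with Dex and 94 to 127 with vehicle, and WT-GR libraries 10 to 42 with Dex and 155 to 181 with vehicle. The antisense gene AC078860.1 covers 3.96% of the LGR5 exon bases. The sources used here do not say whether reads were counted by strand, so reads of the pair cannot be told apart there.

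**Figure D1:**
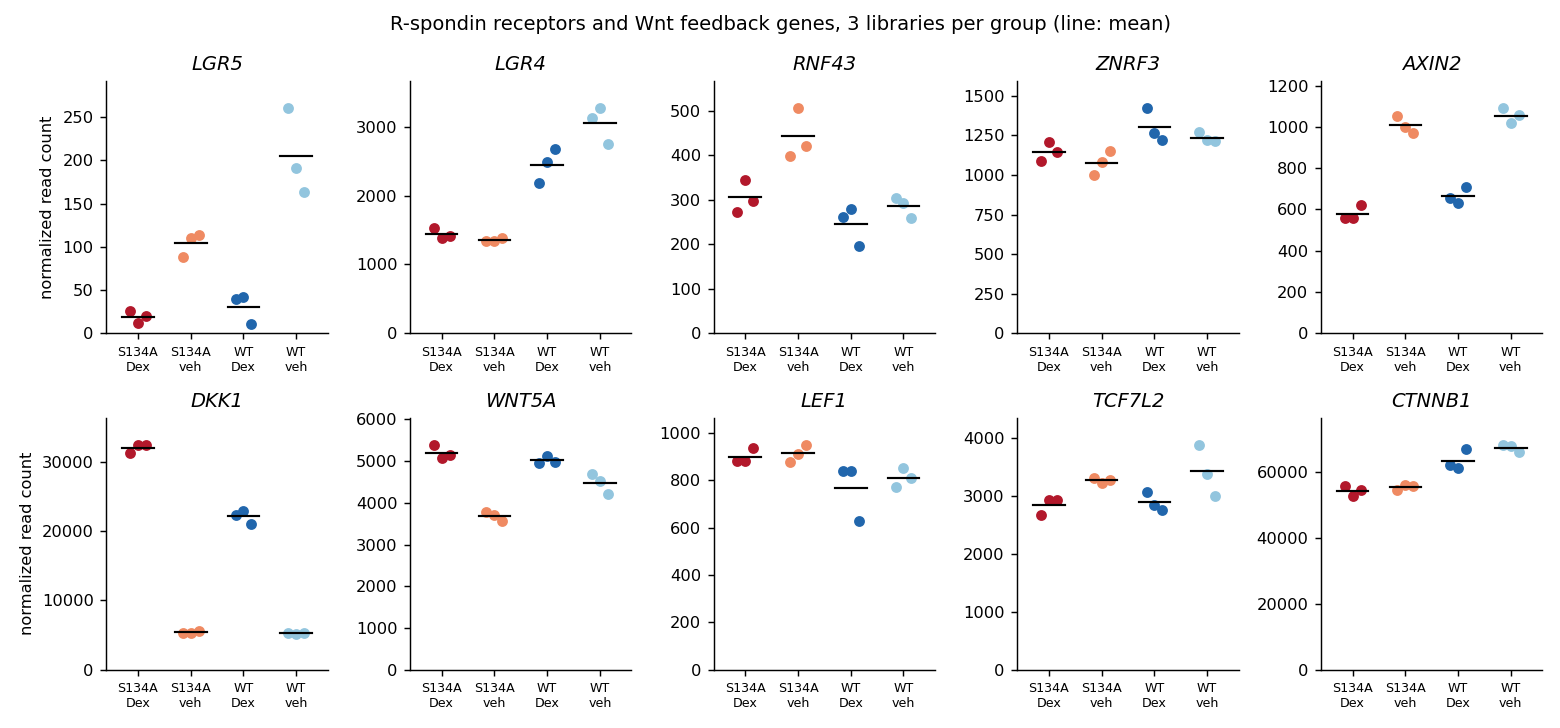
Normalized read counts (y axis, linear, from 0) of the 10 genes in each library (points) and the mean (line) of the 4 groups on the x axis. LGR5 and AXIN2 sat lower, and DKK1 higher, in the Dex libraries of both genotypes, while LGR4 split by genotype.

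LGR4, the more widely expressed R-spondin receptor, was lower in S134A-GR cells at either treatment (ENSG00000205213, chr11:27365961-27472775, minus strand). It was counted at 1532, 1385 and 1418 in S134A-GR Dex and at 1338, 1338 and 1384 in S134A-GR vehicle. In WT-GR cells it was counted at 2184, 2489 and 2688 in Dex and at 3133, 3283 and 2762 in vehicle. Each S134A-GR library lay below each WT-GR library of either treatment. Between genotypes, groups of 3 did not overlap for 52.4% of all genes in Dex and 64.3% in vehicle. That share was not computed for all S134A-GR against all WT-GR libraries. S134A-GR minus WT-GR, the log2 difference was -0.76 ± 0.08 with Dex and -1.17 ± 0.08 with vehicle (SE), with limma adjusted p = 6.06e-06 and 1.12e-07.

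With Dex, LGR4 fell in WT-GR cells (log2 difference -0.32 ± 0.08, SE, limma adjusted p = 0.0114), a call lost without WT-GR vehicle replicate 2 (adjusted p = 0.0615) and with only the compared groups in the fit (0.0509). In S134A-GR cells the log2 difference was 0.09, with limma adjusted p = 0.562. The difference between the responses was 0.41 (95% interval 0.16 to 0.66), which did not pass in limma (adjusted p = 0.141) and did in DESeq2 on recovered reads (adjusted p = 0.0281) and in limma without WT-GR Dex replicate 3 (adjusted p = 0.0299). Over all its alternatives the adjusted p ran from 0.00507 to 0.345. LGR6, the remaining receptor of this family, was near the filter, with S134A-GR means of 14.7 in Dex and 30.4 in vehicle and WT-GR means of 20.2 in Dex and 55.4 in vehicle. The fall of LGR6 passed in WT-GR cells (-1.33, limma adjusted p = 0.0202), while in S134A-GR cells the difference was -1.04 (adjusted p = 0.0924). The R-spondins themselves were scarce: RSPO2, RSPO3 and RSPO4 reached at most 14.8, 7.37 and 2.83 in any library, and none passed the filter.

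RNF43, a ligase that removes Frizzled receptors, fell with Dex in S134A-GR cells and was higher there in vehicle (ENSG00000108375, chr17:58352500-58417595, minus strand). Its values were 274, 346 and 298 in S134A-GR Dex, against 399.6, 507 and 422 in S134A-GR vehicle, with no overlap. They were 261, 280.5 and 195 in WT-GR Dex, against 303, 293 and 260.1 in WT-GR vehicle, where the groups overlapped. Of all genes, 38.6% had no such overlap in S134A-GR and 35.1% in WT-GR cells. The fall was -0.53 ± 0.15 in S134A-GR cells (SE, limma adjusted p = 0.0279) and the difference in WT-GR cells -0.23 ± 0.15 (SE, adjusted p = 0.281). The S134A-GR call was lost without S134A-GR vehicle replicate 2 or 3 or Dex replicate 1 or 3, with adjusted p up to 0.132. The difference between the responses, -0.30, did not pass (limma adjusted p = 0.466, 95% interval -0.77 to 0.16). S134A-GR minus WT-GR, RNF43 was higher in vehicle by 0.63 (limma adjusted p = 0.0035), and in Dex the difference was 0.32 (adjusted p = 0.091). Annotated exons of the gene AC004687.2, on the same strand, cover 57.6% of the RNF43 exon bases, and those of TSPOAP1-AS1, on the opposite strand, 20.3%, so the RNF43 values are uncertain.

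ZNRF3, the paralog of RNF43, stayed in a narrow range in all libraries (ENSG00000183579, chr22:28883592-29057487, plus strand). It was counted at 1089, 1209 and 1142 in S134A-GR Dex, against 1000, 1082 and 1150.1 in S134A-GR vehicle, and at 1424, 1263 and 1219 in WT-GR Dex, against 1274, 1221 and 1213 in WT-GR vehicle. Dex and vehicle overlapped in both genotypes, and the log2 differences were 0.09 and 0.07 in S134A-GR and WT-GR cells (95% intervals -0.08 to 0.26 and -0.10 to 0.24, limma adjusted p = 0.544 and 0.524). In vehicle it was lower in the S134A-GR cells, at a log2 difference of -0.20 (limma adjusted p = 0.0462), a call just inside the threshold that was lost in 10 alternatives, with adjusted p up to 0.204. In Dex that difference was -0.18 (limma adjusted p = 0.0693).

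AXIN2, a scaffold of the complex that destroys beta-catenin and a gene widely used as a readout of Wnt signalling, fell with Dex in both genotypes (ENSG00000168646, chr17:65528563-65561647, minus strand). Its values were 557, 559 and 623 in S134A-GR Dex, against 1055, 1001 and 968 in S134A-GR vehicle. They were 654, 629 and 707 in WT-GR Dex, against 1092, 1017 and 1056 in WT-GR vehicle. All 6 Dex libraries lay below all 6 vehicle libraries. Within a genotype, groups of 3 did not overlap for 38.6% of all genes in S134A-GR and 35.1% in WT-GR cells. No such share was computed for 6 against 6. The means were 579.9 ± 37.8 in Dex and 1008 ± 43.6 in vehicle in S134A-GR cells, and 663 ± 39.8 and 1055 ± 37.5 in Dex and vehicle in WT-GR cells (SD, n = 3 each). The log2 differences were -0.80 ± 0.08 and -0.67 ± 0.08 in S134A-GR and WT-GR cells (SE), with limma adjusted p = 4.6e-06 and 2.67e-05, and both calls held in every alternative run. Between them the difference was -0.13 (95% interval -0.37 to 0.11, limma adjusted p = 0.557). The genotypes differed in AXIN2 by -0.19 with Dex and -0.07 with vehicle, neither past the threshold (limma adjusted p = 0.0538 and 0.51). Exons of AC004805.1, on the same strand, cover 25.2% of the AXIN2 exon bases, so its values are uncertain to that extent.

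DKK1, the secreted blocker of LRP receptors, rose most of all 10 genes, 5.93-fold in S134A-GR cells and 4.21-fold in WT-GR cells (ENSG00000107984, chr10:52314296-52318042, plus strand). It was counted at 31177, 32318 and 32425 in S134A-GR Dex, against 5363, 5244 and 5566 in S134A-GR vehicle. The counts were 22351, 22938 and 21038 in WT-GR Dex, against 5261, 5147 and 5336 in WT-GR vehicle. Dex libraries stood far above vehicle libraries, and each S134A-GR Dex library stood above each WT-GR Dex library. Dex and vehicle did not overlap for 38.6% of all genes in S134A-GR and 35.1% in WT-GR cells. The genotypes with Dex did not overlap for 52.4%. On the log2 scale the rises were 2.57 ± 0.04 and 2.07 ± 0.04 in S134A-GR and WT-GR cells (SE), with limma adjusted p = 6.99e-14 and 9.37e-13.

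The rise of DKK1 was larger in S134A-GR cells by 0.49 ± 0.06 (SE, 95% interval 0.36 to 0.63), with limma adjusted p = 0.00244 for the difference of the responses. This difference kept its direction and call in each of the 20 alternatives run, at 0.45 to 0.53 with adjusted p up to 0.0186. Vehicle levels were close, at 5391 ± 163 in S134A-GR and 5248 ± 95.4 in WT-GR cells (SD, n = 3 each), a log2 difference of 0.04 (limma adjusted p = 0.485). In Dex the means were 31973 ± 691 in S134A-GR and 22109 ± 973 in WT-GR cells (SD, n = 3 each), 1.45-fold higher in S134A-GR cells (log2 difference 0.53, limma adjusted p = 4.12e-07). Of the glucocorticoid-induced genes, FKBP5 passed the same test with a smaller response in S134A-GR cells (difference of responses -0.38, limma adjusted p = 0.023). For PER1 and TSC22D3 the differences were -0.43 and -0.07, outside the threshold (limma adjusted p = 0.128 and 0.65). The antisense gene PRKG1-AS1, at 46.6 to 137 in these libraries, covers 9.61% of the DKK1 exon bases.

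**Figure D2:**
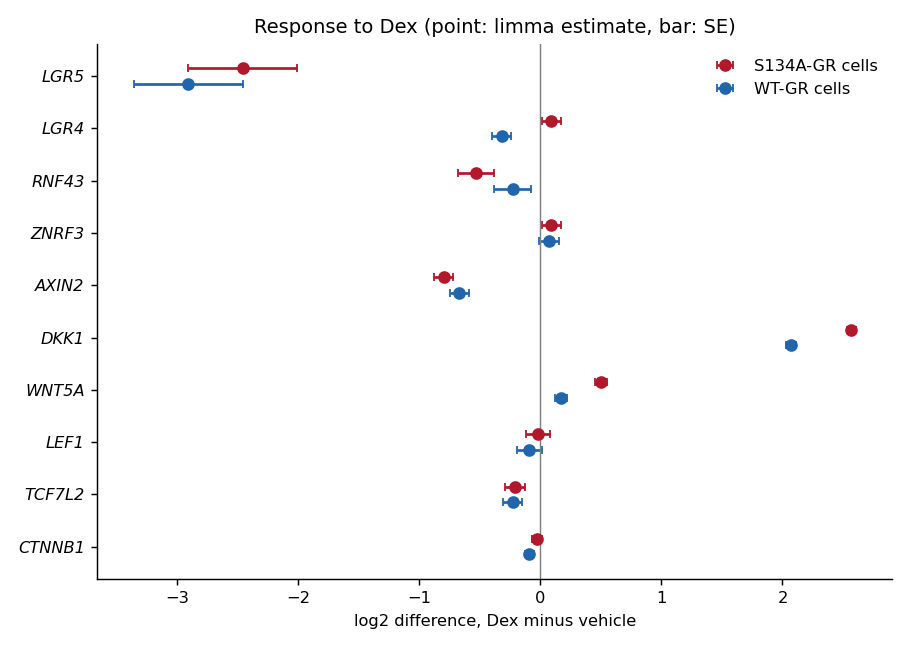
Dex minus vehicle on the log2 scale (x axis) for each gene (y axis) in S134A-GR and WT-GR cells, as limma estimates with their SE as bars. LGR5 lay at -2.46 and -2.91, AXIN2 at -0.80 and -0.67 and DKK1 at 2.57 and 2.07 in S134A-GR and WT-GR cells, and the other genes lay nearer to 0.

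WNT5A, a ligand known mainly for beta-catenin-independent signalling and cell movement, rose with Dex in S134A-GR cells 1.41-fold (ENSG00000114251, chr3:55465715-55490539, minus strand). Its values were 5391, 5067 and 5147 in S134A-GR Dex, against 3772, 3704 and 3554 in S134A-GR vehicle. In WT-GR cells they were 4951, 5112 and 4987 in Dex, against 4686, 4531 and 4212 in vehicle. Dex libraries lay above vehicle libraries in both genotypes, with a wide gap in S134A-GR cells and a narrow one in WT-GR cells. Such groups did not overlap for 38.6% and 35.1% of all genes in those cells. The log2 differences were 0.50 ± 0.05 and 0.17 ± 0.05 in S134A-GR and WT-GR cells (SE, limma adjusted p = 5.98e-06 and 0.0256). The WT-GR call was lost in 6 alternatives, with adjusted p up to 0.15, among them scaling by library size only (log2 difference 0.10, edgeR adjusted p = 0.15) and leaving out WT-GR vehicle replicate 2 or 3 or WT-GR Dex replicate 2.

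The responses of WNT5A differed by 0.33 (95% interval 0.18 to 0.49), outside the limma threshold at adjusted p = 0.0625. DESeq2 on recovered reads gave 0.34 with adjusted p = 0.00123, and over all alternatives the adjusted p ran from 0.00123 to 0.208. In vehicle WNT5A was lower in the S134A-GR libraries, at a log2 difference of -0.28 ± 0.05 (SE, limma adjusted p = 0.000377). In Dex the genotypes differed by 0.05 (95% interval -0.06 to 0.16, limma adjusted p = 0.413).

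Among the nuclear members, no call with Dex held throughout. LEF1, a factor that carries beta-catenin to DNA, was at 879, 883 and 934 in S134A-GR Dex, against 878, 912 and 949.7 in S134A-GR vehicle, and at 838, 839 and 628 in WT-GR Dex, against 772, 853 and 808 in WT-GR vehicle (ENSG00000138795, chr4:108047545-108168956, minus strand). Its Dex and vehicle values overlapped in both genotypes, and WT-GR Dex replicate 3 was the lowest of all. The log2 differences were -0.02 and -0.09 in S134A-GR and WT-GR cells (95% intervals -0.25 to 0.20 and -0.31 to 0.13, limma adjusted p = 0.938 and 0.554). Between genotypes LEF1 differed by 0.24 with Dex and 0.17 with vehicle (limma adjusted p = 0.0705 and 0.185). The Dex value was 0.10 without WT-GR Dex replicate 3, and 0.31 with a call without WT-GR Dex replicate 1 or 2 (limma adjusted p = 0.0337 and 0.0356). LEF1-AS1, at 15.4 to 40.5, covers 5.2% of the LEF1 exon bases.

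TCF7L2, the TCF factor also known as TCF4, was at 2668, 2930.0 and 2929 in S134A-GR Dex, against 3319, 3229 and 3276 in S134A-GR vehicle (ENSG00000148737, chr10:112950250-113167678, plus strand). In WT-GR cells it was at 3078, 2854 and 2763 in Dex, against 3888, 3388 and 2999.9 in vehicle. The S134A-GR groups did not overlap, as was so for 38.6% of all genes, and the WT-GR groups did. The log2 differences were -0.21 and -0.23 in S134A-GR and WT-GR cells (limma adjusted p = 0.115 and 0.045). The WT-GR call was lost in 14 alternatives, with adjusted p up to 0.339, among them the fits without WT-GR vehicle replicate 1 or 2, WT-GR Dex replicate 2 or 3, or any 1 of 5 S134A-GR libraries. Conversely, the S134A-GR difference passed with only the compared groups fitted (limma adjusted p = 0.0112). The genotypes differed by -0.03 with Dex and -0.06 with vehicle (limma adjusted p = 0.796 and 0.586). AL158212.2, on the opposite strand, covers 4.45% of the TCF7L2 exon bases.

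CTNNB1, which encodes beta-catenin, was lower in S134A-GR cells (ENSG00000168036, chr3:41194741-41260096, plus strand). It was counted at 55605, 52688 and 54601 in S134A-GR Dex and at 54504, 56197 and 55813 in S134A-GR vehicle, against 61995, 61120.3 and 66962 in WT-GR Dex and 68279.8, 67800.2 and 65948 in WT-GR vehicle. All 6 S134A-GR libraries lay below all 6 WT-GR libraries. The genotype groups of 3 did not overlap for 52.4% of all genes in Dex and 64.3% in vehicle. No such share was computed for 6 against 6. S134A-GR minus WT-GR, the log2 difference was -0.22 ± 0.04 with Dex and -0.28 ± 0.04 with vehicle (SE, limma adjusted p = 0.000668 and 0.000101). Both calls held in every alternative run, but with scaling by library size only the Dex difference was -0.11, just inside the threshold (edgeR adjusted p = 0.0491). With Dex it differed by -0.03 and -0.09 in S134A-GR and WT-GR cells (95% intervals -0.12 to 0.06 and -0.18 to 0.00, limma adjusted p = 0.733 and 0.133). RNA levels do not show the amount of beta-catenin protein, which is set mainly by its breakdown.

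**Figure D3:**
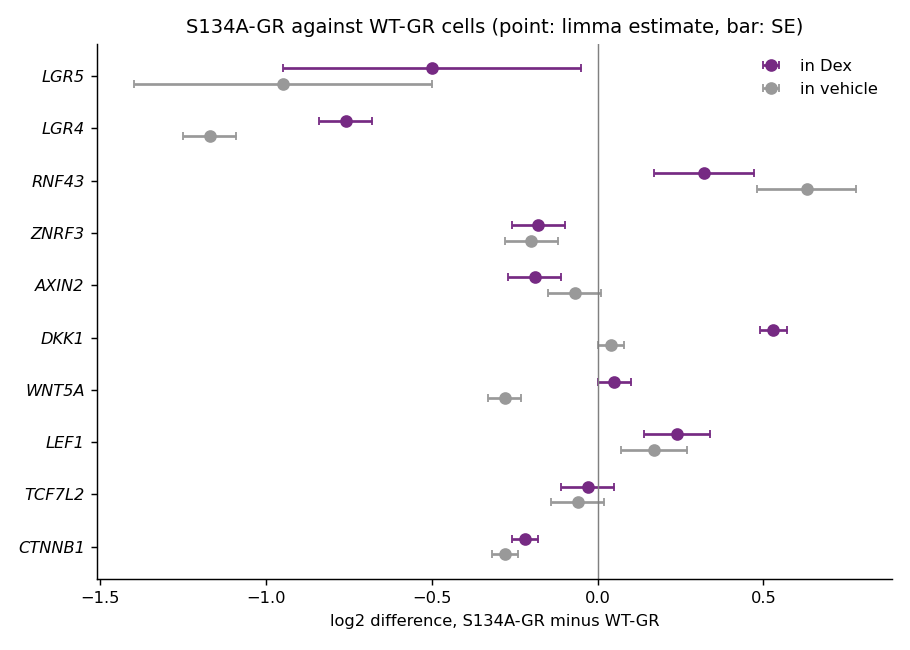
S134A-GR minus WT-GR on the log2 scale (x axis) for each gene (y axis) in Dex and in vehicle, as limma estimates with their SE as bars. LGR4 lay at -0.76 in Dex and -1.17 in vehicle, and DKK1 at 0.53 in Dex and 0.04 in vehicle.

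Across the set, limma called 5 of 10 members for Dex in S134A-GR cells, with DKK1 and WNT5A higher and LGR5, RNF43 and AXIN2 lower, where 15.7% of all 15957 genes tested were called (7.99% higher and 7.76% lower). In WT-GR cells it called 5 of the 9 members other than LGR5, with DKK1 and WNT5A higher and LGR4, AXIN2 and TCF7L2 lower, where 27.9% of all genes were called (13.9% higher and 14.0% lower). That second count was 2 with only the compared groups fitted or without WT-GR vehicle replicate 2, and 3 without WT-GR Dex replicate 2. The median log2 difference of the 10 members was -0.03 in S134A-GR cells and -0.16 in WT-GR cells, beside -0.02 over all genes in each. The members were picked with results of these libraries known, so an excess over the background is not independent evidence.

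For the difference of Dex responses limma called DKK1, 1 of 9 members, where 0.414% of all genes were called. Without WT-GR Dex replicate 3 it called LGR4 and WNT5A too, among 1623 genes in place of 66. In the genotype comparison in vehicle it called 5 of 9, with RNF43 higher and LGR4, ZNRF3, WNT5A and CTNNB1 lower in S134A-GR cells, where 50.5% of all genes were called. In Dex it called 3 of 9, with DKK1 higher and LGR4 and CTNNB1 lower, where 49.7% of all genes were called, and 6 without WT-GR Dex replicate 2. Both genotype counts were near the share of all genes and say nothing particular about these members. The comparisons share libraries, since each group enters more than 1 of them. Of all genotype calls, 47.0% were higher in S134A-GR cells with Dex and 47.2% with vehicle, and 64.9% and 59.6% in edgeR with scaling by library size only, which moved the median of all genes in the Dex comparison to 0.11. For Dex in WT-GR cells 49.7% of calls were higher, and 32.4% with that scaling.

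Per kb of exon, so that genes can be set side by side, DKK1 had the highest mean level with Dex, at 14494 ± 313 in S134A-GR and 10022 ± 441 in WT-GR cells (normalized read count per kb, SD, n = 3 each). In vehicle CTNNB1 was the highest, at 4654 ± 74.4 in S134A-GR and 5646 ± 103 in WT-GR cells, and DKK1 came next at 2444 ± 73.9 and 2379 ± 43.2 in those cells. WNT5A, TCF7L2 and LGR4 followed in that order of mean level per kb in each of the 4 groups, but TCF7L2 and LGR4 lay within their spread in WT-GR vehicle, at 509 ± 66.1 and 483 ± 42.3, and their libraries overlapped in WT-GR Dex, at 430.3 ± 24.1 and 387 ± 40.1. The last places were held by RNF43 and LGR5. In WT-GR vehicle these 2 were at 38.0 ± 2.99 and 39.1 ± 9.56 per kb, closer than their spread, while in WT-GR Dex RNF43 was at 32.7 ± 5.95 and LGR5 at 5.80 ± 3.35. LEF1 and ZNRF3 also lay within their spread of each other in S134A-GR Dex, at 168 ± 5.74 and 165 ± 8.63 per kb. LGR4 exceeded LGR5 per kb in every group, at 228 ± 12.1 against 3.59 ± 1.34 in S134A-GR Dex and at 483 ± 42.3 against 39.1 ± 9.56 in WT-GR vehicle. Other genes on the same strand share 57.6% of the RNF43 and 25.2% of the AXIN2 exon bases. How reads there were counted is not given, so the levels per kb and places of RNF43 and AXIN2 are uncertain.

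Among the genes whose profile over the 12 libraries was most like that of LGR5 were IL11, IL1B, FOXS1 and CASS4. Likeness was the root mean square difference of log2(value + 1) after each gene was centred on its own mean, and was 0.58, 0.64, 0.68 and 0.71 for these genes, with a median of 1.51 over the 15956 other genes tested. The cytokine IL11 averaged 507 with Dex and 3020.2 with vehicle in S134A-GR cells, and 1018 with Dex and 5177 with vehicle in WT-GR cells. IL1B, also a cytokine gene, averaged 266, 1207, 454 and 2117 in the same order of groups. FOXS1 and CASS4 averaged at most 22.7 and 17.4 in any group, so their profiles rest on few reads. As the profile of LGR5 itself chose these genes, their likeness is a description with no test.

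**Figure D4:**
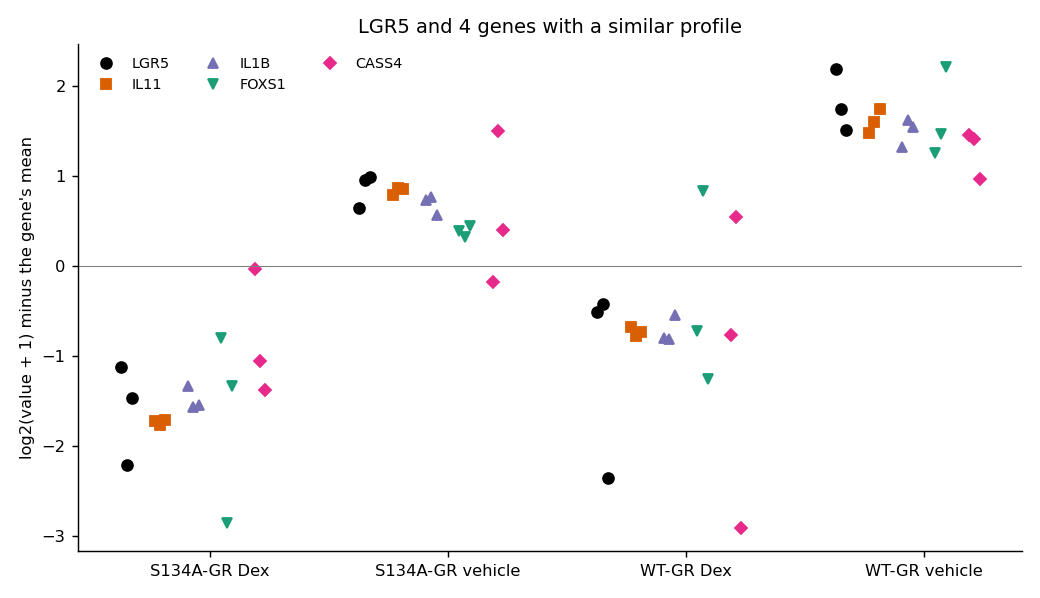
Centred log2(value + 1) (y axis) of LGR5 and 4 genes with a similar profile in each library (points), by group on the x axis. In each of these genes the Dex points had a lower mean than the vehicle points of the same genotype, and the WT-GR vehicle points had the highest mean.

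Beyond the 10 members, 7 lists of Wnt pathway genes held 96 symbols, of which 88 were in the files and 68 passed the filter. With Dex, limma called 5 of them higher and 15 lower in S134A-GR cells, and 6 higher and 16 lower in WT-GR cells. Together they were 20 and 22 of 68, beside the 15.7% and 27.9% of all genes called in S134A-GR and WT-GR cells. Their median log2 difference was -0.03 and -0.01 in S134A-GR and WT-GR cells, beside -0.02 over all genes in each.

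Of 12 Wnt ligand and secretion genes past the filter, 3 were called lower in S134A-GR and 4 in WT-GR cells, and none higher. Over all genes 15.7% were called in S134A-GR cells and 27.9% in WT-GR cells, in either direction. WNT7B, a ligand known to act through beta-catenin, fell to 1360.4 ± 71.2 in S134A-GR Dex, against 4046 ± 37.9 in S134A-GR vehicle, and to 1094 ± 59.5 in WT-GR Dex, against 2559.5 ± 46.2 in WT-GR vehicle (SD, n = 3 each). Its log2 differences were -1.57 and -1.23 in S134A-GR and WT-GR cells, and those of WNT9A -1.40 and -1.47 (limma adjusted p at most 1.93e-06). WLS, the carrier that brings Wnt proteins to the surface, had -0.19 and -0.17. WNT4 was also called lower in WT-GR cells (-1.96, limma adjusted p = 0.0282), at 2.03 to 3.99 in Dex and 8.42 to 23.3 in vehicle. It reached 10 only in WT-GR vehicle replicates 1 and 2 (16.3 and 23.3) and S134A-GR Dex replicate 2 (17.5). WNT4 thus passed the filter only with the vehicle group where it was high, and its WT-GR call is a description, not support. In S134A-GR cells WNT4 was at 4.23 to 17.5 in Dex and 2.83 to 5.35 in vehicle, without a call. WNT5A, given above, was the member of this family that rose.

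Of 14 receptor genes, 1 rose and 2 fell in S134A-GR cells, and 4 fell in WT-GR cells. The share of all genes called was 15.7% in S134A-GR and 27.9% in WT-GR cells. The Frizzled gene FZD8 fell to 887 ± 27.1 in S134A-GR Dex, against 2163 ± 137 in S134A-GR vehicle, and to 508 ± 68.2 in WT-GR Dex, against 1029 ± 106 in WT-GR vehicle (SD, n = 3 each). Its log2 differences were -1.28 and -1.02 in S134A-GR and WT-GR cells, and those of LRP5, a coreceptor that DKK1 can block, -0.53 and -0.43 (limma adjusted p at most 0.000561). RYK rose in S134A-GR cells by 0.16. In WT-GR cells RYK also lay higher with Dex, at 6294 to 6700 against 5929 to 6248 in vehicle, without a call. Of 6 extracellular inhibitor genes past the filter none was called in S134A-GR cells, by limma, edgeR or DESeq2, and none had an unadjusted p under 0.05 there. For APCDD1, which was listed at 0 in all 6 S134A-GR libraries and passed the filter through WT-GR libraries, no call could have been made. In WT-GR cells limma called SOSTDC1 (-2.04, adjusted p = 0.0473), at 0 to 10.2 in Dex and 14.7 to 17.9 in vehicle, which edgeR did not. Outside WT-GR vehicle it reached 10 only in WT-GR Dex replicate 1 (10.2) and S134A-GR Dex replicate 3 (11.3). SOSTDC1 thus passed the filter only with the vehicle group where it was high, and its call is a description, not support.

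**Figure D5:**
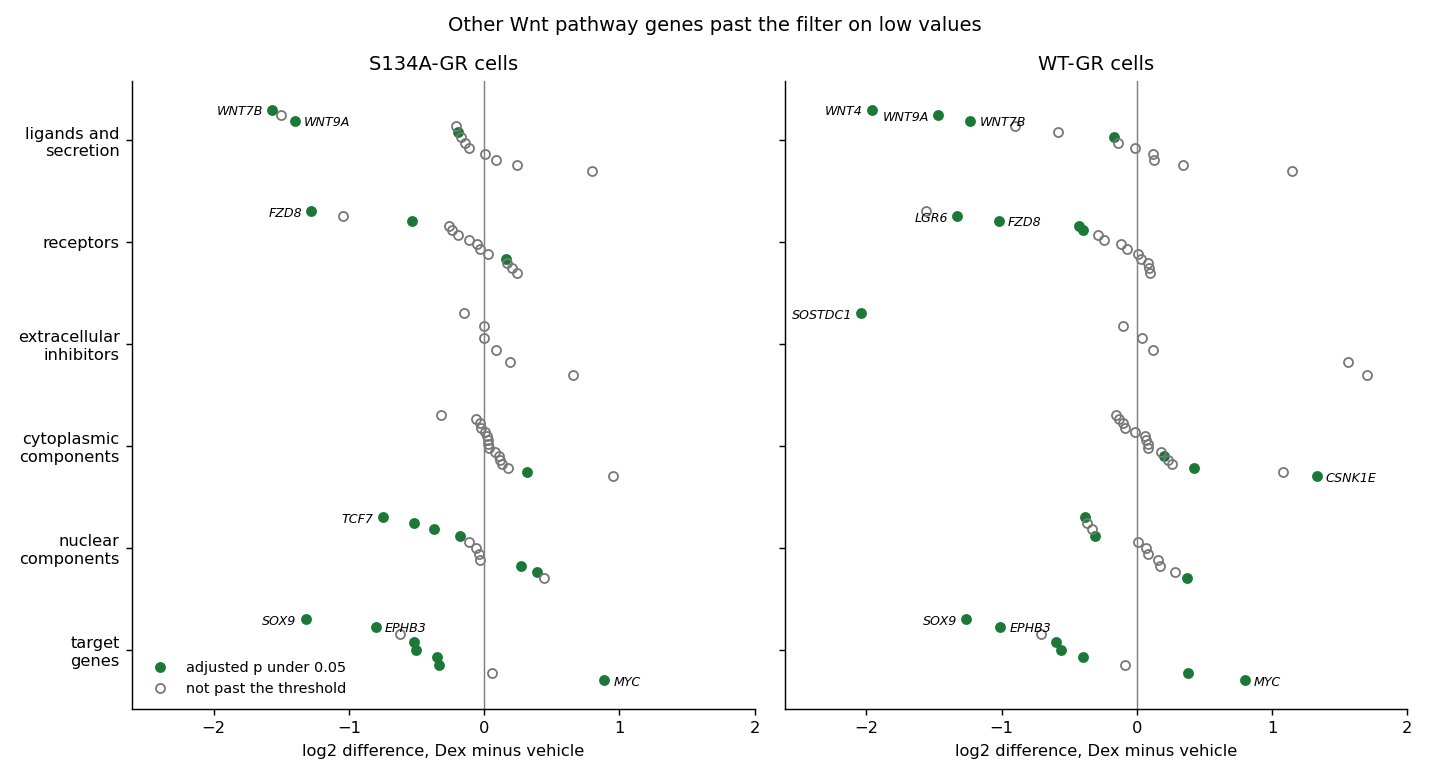
Dex minus vehicle on the log2 scale (x axis) for the listed Wnt pathway genes past the filter (points), by list (y axis), in S134A-GR cells (left) and WT-GR cells (right). Filled points passed limma's adjusted threshold, and WNT7B, WNT9A, FZD8, SOX9 and EPHB3 lay low and MYC high in both panels.

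Among 16 cytoplasmic components 1 was called higher in S134A-GR cells and 3 in WT-GR cells, and none was called lower. Over all genes 15.7% and 27.9% were called in S134A-GR and WT-GR cells, and neither count exceeded that share. The kinase gene CSNK1D rose in both, by 0.32 and 0.42 in S134A-GR and WT-GR cells (limma adjusted p = 0.000182 and 1.46e-05). CSNK1E rose in WT-GR cells (1.33, limma adjusted p = 0.0332), where WT-GR vehicle replicate 1 was at 14.7 against 62.4 and 68.4 in the other vehicle libraries. In S134A-GR cells CSNK1E lay lower with Dex, at 87.7 to 106 against 114 to 121 in vehicle, without a call. Among 11 nuclear components 2 rose and 4 fell in S134A-GR cells, and 1 rose and 2 fell in WT-GR cells, beside the same shares of all genes. The corepressor TLE3 fell by 0.52 and 0.38, the coactivator BCL9 by 0.37 and 0.31 in S134A-GR and WT-GR cells, and TCF7 fell by 0.75 in S134A-GR cells (limma adjusted p at most 0.0243). In WT-GR cells TCF7 also lay lower with Dex, at 151 to 171 against 202 to 205 in vehicle, without a call. TLE1, another corepressor, rose by 0.39 in S134A-GR cells. BCL9L, the paralog of BCL9, rose by 0.27 and 0.37 in S134A-GR and WT-GR cells.

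Of 9 widely used beta-catenin target genes past the filter, 1 rose and 6 fell in S134A-GR cells, and 2 rose and 5 fell in WT-GR cells. Their median log2 difference was -0.50 and -0.56 in those cells. Over all genes 7.99% were called higher and 7.76% lower in S134A-GR cells, and 13.9% and 14.0% in WT-GR cells. The transcription factor SOX9 fell to 3725 ± 276 in S134A-GR Dex, against 9306 ± 138 in S134A-GR vehicle, and to 3838 ± 389 in WT-GR Dex, against 9143 ± 531 in WT-GR vehicle (SD, n = 3 each). The ephrin receptor EPHB3 fell by 0.80 and 1.01 in S134A-GR and WT-GR cells. MYC, the proto-oncogene, rose by 0.89 and 0.80 on the log2 scale in these cells (limma adjusted p = 2.71e-09 and 7.83e-09). Each of these genes has other regulators, and the list says nothing of beta-catenin activity by itself.

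The difference of Dex responses was called for 0 of the 68 pathway genes by limma, with 10 at an unadjusted p under 0.05, for 0 by edgeR with either scaling and for 1 by DESeq2. Between genotypes limma called 17 higher and 18 lower in S134A-GR cells with Dex and 18 higher and 18 lower with vehicle, against a background of 23.4% and 26.3% of all genes with Dex and 23.8% and 26.7% with vehicle. LRP5 was counted at 8903 ± 653 in S134A-GR Dex and 12813 ± 332 in S134A-GR vehicle, against 24617 ± 2694 in WT-GR Dex and 33137 ± 1022 in WT-GR vehicle (SD, n = 3 each). S134A-GR minus WT-GR, the LRP5 log2 difference was -1.46 with Dex and -1.37 with vehicle (limma adjusted p = 4.95e-09 and 7.19e-09). ROR1, a WNT5A receptor, was also lower in S134A-GR cells, at -1.01 with Dex and -1.25 with vehicle, and so was TCF7L1, at -1.32 and -1.48. FZD8 was higher in S134A-GR cells by 0.81 with Dex and 1.07 with vehicle, and KREMEN2, a receptor for DKK1, by 1.01 and 1.05. APCDD1, a membrane inhibitor of Wnt signalling, was listed at 0 in all 6 S134A-GR libraries, against 34.1, 27.9 and 18.3 in WT-GR Dex and 9.78, 4.23 and 12.6 in WT-GR vehicle.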

How the data were processed

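For every library the authors deposited a normalized signal per gene. The tools named, with no role or order, are DESeq2 1.22.2, featureCounts of Subread, FastQC 0.11.7 and hg38, per the submitters' processing notes. Aligner, annotation and strand setting: not given in the sources used here. Per the labels' protocols, TruSeq mRNA libraries were read as 75-base pairs on a HiSeq instrument. Within each library the deposited signal values were whole multiples of 1 step, so 100% gave whole reads within a tolerance of 0.01 reads, and the signal was read as counts divided by a size factor. Even counts were over-represented (58.2 to 67.5% of counts from 1 to 20), so independent fragments may be fewer than the recovered reads.

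The Dex files list 26485 names for 19907 values, and the name lists part at line 9. Matched by line, Dex and mean vehicle log2 values correlated across genes at r = 0.9822 to 0.9860, and matched by the 14926 shared names at -0.0059 to -0.0040. In all 98 windows of each Dex file the same line matched best, so the names of the vehicle files were used by line order.

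limma 3.58.1 in R 4.3.3 with a mean-variance trend was fitted to log2(value + 1) of all 12 libraries, 1 coefficient per group, over 15957 genes, with two-sided p-values adjusted by Benjamini-Hochberg over all of them at a threshold of 0.05. The log2 scale with a pseudocount of 1 understates the change of low genes. The fit was tested on simulated data with the same spread beyond counting noise for every gene and no changes among the lowest genes. That test does not cover low genes, or replicates that vary as widely as those of LGR5 in WT-GR Dex. edgeR 4.0.16 and DESeq2 1.42.0 on recovered reads were alternatives, as were a pseudocount of 5, no filter, fits of the compared groups only, library weights, a replicate block, leaving out each library, and leaving out WT-GR Dex replicates 2 and 3 together.

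The text names all 10 members, 4 of the 5 genes most like LGR5 (the other is not reported here), at most 3 called genes per list and comparison by absolute change, and TSC22D3, FKBP5, PER1 and NR3C1, and gives such a gene's values in other comparisons too. The R-spondin genes, which had no test, are named outside this rule. Members, lists and tests were chosen with earlier results of these data known. Gene positions and exon lengths came from GENCODE on GRCh38, with all 10 members matched by symbol, and promoters of 7 members from RefSeq.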

Additional observations from a re-analysis of the deposited data

Results flagged for a closer look

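DKK1 was singled out because its Dex responses differed between the genotypes by the test of the difference itself. Its log2 response was 2.57 in S134A-GR and 2.07 in WT-GR cells, a difference of 0.49 ± 0.06 (SE, limma adjusted p = 0.00244). All 3 S134A-GR Dex libraries stood above all 3 WT-GR Dex libraries, where 52.4% of all genes did not overlap, and the vehicle groups overlapped. Across all genes tested 0.414% passed that test.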

How the results depend on the processing

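For the difference of Dex responses 66 genes were called, against 504 with DESeq2, 2854 with library weights, 25 with the replicate block, 2565 without WT-GR Dex replicates 2 and 3 and 26 to 1623 when 1 library was left out, the highest without WT-GR Dex replicate 3. Members called there were 1, against 2 with scaling by library size only, 3 with DESeq2, 3 with library weights, 3 without WT-GR Dex replicates 2 and 3, and 1 to 3 with 1 library left out. For Dex in WT-GR cells 4455 genes were called, against 2530 with only the compared groups fitted and 7113 with library weights, and 5 members, against 2 with only the compared groups fitted, 3 without WT-GR Dex replicates 2 and 3 and 2 to 5 with 1 library left out. For Dex in S134A-GR cells 2513 genes were called, and 5116 with library weights. In the genotype comparison in Dex 3 members were called, against 6 with scaling by library size only and 3 to 6 with 1 library left out. Some small differences changed sign. With scaling by library size only AXIN2 was at 0.01 and TCF7L2 at 0.02 between genotypes in vehicle, and TCF7L2 at 0.09 in Dex. With library weights TCF7L2 was at 0.01 between genotypes in Dex, and the LGR5 difference of responses at -0.13. Without WT-GR Dex replicates 2 and 3, LEF1 was at 0.05 for Dex in WT-GR cells, and the differences of responses were -0.07 for LEF1, -0.14 for LGR5, -0.06 for TCF7L2 and -0.11 for ZNRF3. With 1 library left out, the differences of responses ran from -0.07 to 0.14 for LEF1, -0.18 to 0.79 for LGR5, -0.07 to 0.12 for TCF7L2 and -0.03 to 0.09 for ZNRF3. Leaving out 1 library also gave LEF1 -0.05 to 0.01 for Dex in S134A-GR and -0.16 to 0.05 in WT-GR cells, and TCF7L2 -0.06 to 0.02 between genotypes in Dex and -0.15 to 0.04 in vehicle. Of the member comparisons outside the threshold, 11 passed it in 1 to 6 alternatives. The cause of these changes was not tested. Samples with the same replicate number did not deviate together (r from -0.09 to 0.06 across genes), so no pairing by number was seen in the values. Whether samples with the same number were cultured or prepared together was not tested. With the replicate block the adjusted p of TCF7L2 for Dex in WT-GR cells was 0.0588 and that of ZNRF3 between genotypes in vehicle 0.077, and it changed no other member's call. LGR5, at 10 to 42 reads per WT-GR Dex library, is the member most limited by depth.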
